A study of Homo sapiens with 10 samples.

Results

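TRIM49, TRIM49B, TRIM49C, POTEE, POTEF, POTEI and POTEJ are 7 of the 26040 genes in an RNA sequencing table of U2OS, a human osteosarcoma cell line. They were taken by symbol and were chosen by their measured values in these same libraries, as members of primate duplicated families that moved strongly with nutlin-3a or between lines. Their values are therefore given as a description, with no test. All 7 symbols were found, and all 7 passed the filter on low values, which asked for 3 or more libraries at 10 or above. The 3 TRIM49 genes passed it only through treated libraries, and the 4 POTE genes passed it on the untreated libraries alone.

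The series asks how knockdown of ARVCF, a catenin of the p120 family, changes transcription driven by p53. Poly(A) RNA came from cells that carried, after lentiviral infection, a negative control shRNA or 1 of 3 shRNAs directed at ARVCF. Nutlin-3a, which frees p53 from the ubiquitin ligase MDM2, was given at 10 µM for 24 h or not given. There were 4 groups: untreated shARVCF lines (3 libraries), the same shARVCF lines with nutlin-3a (3 libraries), the untreated control line (1 library) and the control line with nutlin-3a (3 libraries). All groups, controls included, carried an shRNA vector and had been selected in puromycin at 1 µg/ml. Each line is described as a single clone, so what belongs to a clone and what belongs to an shRNA cannot be told apart. Replicate numbers 1, 2 and 3 of the shARVCF groups stand for the 3 shRNA lines. Replicates 2 and 3 of the treated control carry later library numbers than the other 8 libraries, and no label says whether the treated control libraries came from separate cultures.

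TRIM49 genes encode proteins of the tripartite motif family, which join a RING domain, typical of ubiquitin ligases, to a B-box, a coiled coil and a PRY-SPRY end. The TRIM49, TRIM43, TRIM48, TRIM51 and TRIM64 genes form a primate group of near copies, known for expression in testis and, for several of them, in early embryos after the transcription factor DUX4 is active. POTE genes encode proteins with ankyrin repeats and a coiled coil, known for expression in prostate, ovary, testis and placenta and in many cancers. POTEE, POTEF, POTEI and POTEJ belong to the branch in which an actin copy is fused to the end of the reading frame. Because copies resemble each other this closely, short reads can often be placed on more than 1 of them.

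Values are fragments per gene, estimated and scaled between libraries by the authors. Scaled totals ran from 17821751 to 19903778 per library, and the estimated unscaled fragments from 15073578 to 21096205, lowest in replicates 2 and 3 of the treated control. ARVCF, the targeted gene, was listed at 292, 343 and 338 in the untreated shARVCF libraries against 618 in the untreated control. Under nutlin-3a it was 1284, 1188 and 1232 against 2928, 2571 and 2376 in the control, so the treated shARVCF libraries all lay below the treated controls. The p53 targets MDM2 and CDKN1A rose with nutlin-3a in both kinds of line. Of the osteoblast lineage markers, COL1A1 (41170 to 96680), SPARC (30630 to 48420), VIM, RUNX2, ALPL and SPP1 were present in every library. COL1A2 stayed between 1.83 and 15.5, BGLAP at 4.77 or less, IBSP at 1.96 or less and SP7 at 1.90 or less, and TWIST1 was at 0, so that list was met in part. The testis germ cell markers, genes of a tissue known for both families, summed to between 13.4 and 48.9 per library over 15 genes, of which 7 were at 0 in all libraries.

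The TRIM49 genes lie on chromosome 11 and the 4 POTE genes on chromosome 2 (GENCODE release 29, GRCh38). TRIM49 lies on the minus strand at chr11:89797655-89808575, and TRIM49C on the plus strand at chr11:90031106-90042025. TRIM49B lies apart from them on the plus strand at chr11:49027501-49038451. Each has 8 exons in the transcript used here and a coding sequence of 1356 bases. TRIM49 and TRIM49C differed at 5 of these bases (99.6% identity), while TRIM49B differed from TRIM49 at 28 (97.9%). POTEF (chr2:130074030-130129222, minus strand), POTEI (chr2:130459455-130509666, minus strand), POTEJ (chr2:130611481-130658091, plus strand) and POTEE (chr2:131218067-131265278, plus strand) follow each other along the chromosome. POTEE and POTEF shared 99.3% of 3225 coding bases, and POTEI and POTEJ 99.7% of 3114 aligned bases. The last 1125 coding bases of POTEE were 92.7% identical to ACTB, the gene of cytoplasmic beta actin.

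Stretches before the annotated starts are shown because the TRIM49 genes moved together with nutlin-3a and because near copies did not all keep the same upstream sequence. They come from the RefSeq promoter table (GRCh38.p14), which held windows of 250 bases before and 50 after a start for all 7 genes, and they end at the start or at the first annotated exon. RefSeq and GENCODE place some starts differently: the TRIM49B stretch lies inside the gene as GENCODE draws it, and the POTEE stretch lies before the GENCODE start. All are written 5′ to 3′ on the strand of the gene. In the TRIM sequences capitals mark TAANNNAATCA on either strand, a pattern that takes in the sequence known to be bound by DUX4. The stretches are TRIM49B at chr11:49028573-49028789 (plus strand), TRIM48 at chr11:55261905-55262154 (plus), TRIM51 at chr11:55883047-55883296 (plus), TRIM49 at chr11:89808576-89808825 (minus) and TRIM49C at chr11:90030856-90031105 (plus).
TRIM49B: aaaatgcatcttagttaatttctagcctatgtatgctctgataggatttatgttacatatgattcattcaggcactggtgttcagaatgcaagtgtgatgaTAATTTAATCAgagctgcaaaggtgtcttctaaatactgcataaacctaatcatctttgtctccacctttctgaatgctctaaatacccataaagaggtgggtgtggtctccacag
TRIM48: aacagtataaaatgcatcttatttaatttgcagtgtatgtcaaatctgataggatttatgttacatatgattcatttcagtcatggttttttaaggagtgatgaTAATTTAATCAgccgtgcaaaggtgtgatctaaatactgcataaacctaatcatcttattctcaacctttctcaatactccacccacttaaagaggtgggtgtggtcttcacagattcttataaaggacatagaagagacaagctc
TRIM51: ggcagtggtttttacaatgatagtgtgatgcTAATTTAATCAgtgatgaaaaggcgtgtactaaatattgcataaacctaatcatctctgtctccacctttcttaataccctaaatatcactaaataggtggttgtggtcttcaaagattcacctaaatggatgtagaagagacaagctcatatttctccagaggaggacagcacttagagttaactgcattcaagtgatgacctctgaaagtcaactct
TRIM49: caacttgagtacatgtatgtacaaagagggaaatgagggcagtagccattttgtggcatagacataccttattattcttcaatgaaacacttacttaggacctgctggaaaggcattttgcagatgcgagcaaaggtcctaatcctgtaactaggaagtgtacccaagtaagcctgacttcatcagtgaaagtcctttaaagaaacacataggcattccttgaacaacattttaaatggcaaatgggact
TRIM49C: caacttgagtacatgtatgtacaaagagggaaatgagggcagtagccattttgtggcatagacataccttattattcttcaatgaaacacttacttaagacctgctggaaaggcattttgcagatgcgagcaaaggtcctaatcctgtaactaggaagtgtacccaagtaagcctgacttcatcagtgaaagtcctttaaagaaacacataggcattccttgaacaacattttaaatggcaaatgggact
The windows of TRIM49B, TRIM48 and TRIM51 each held TAATTTAATCA, at 149, 146 and 219 bases before the annotated start. That run of letters was found on either strand in 20 of 35116 RefSeq windows of 300 bases (0.0570%), and the looser TAANNNAATCA in 312 (0.888%), a count that includes every TAATTTAATCA. The pattern was chosen after the sequences had been read. The windows of TRIM49 and TRIM49C held neither and differed from each other only by G98A, counted from 1 at the 5′ end of the window with the base of TRIM49 first. The windows of TRIM64B, ZSCAN4 and PRAMEF2, all higher in treated libraries as given below, also held neither. Of TRIM49-like genes outside the members with a window, 4 of 8 held TAANNNAATCA. Of the genes listed below as switched on by DUX4, 7 of 21 did. The decamer of the p53 consensus, searched on both strands, was found in 6.63% of all windows and in those of TRIM49B, TRIM48 and TRIM51. Windows with both that decamer and TAATTTAATCA numbered 6 in all and belonged to TRIM48, TRIM49B, TRIM49D1, TRIM49D2, TRIM51 and TRIM51G. These genes are of the same group of near copies, so the 6 windows are not separate finds. The TRIM49B and TRIM48 windows, for example, were 88.1% identical over 285 aligned bases. TRIM64 and TRIM64B held the decamer without TAATTTAATCA, and TRIM64 was at 2.01 or less in every library. These matches describe letters in a window and say nothing of what binds there.

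For the POTE genes capitals mark CCAAT on either strand, so ATTGG is also in capitals. The stretches are POTEE at chr2:131209286-131209535 (plus strand) and POTEF at chr2:130129223-130129472 (minus), shown because their coding sequences are nearly the same while their upstream sequences start at different points of a shared stretch.
POTEE: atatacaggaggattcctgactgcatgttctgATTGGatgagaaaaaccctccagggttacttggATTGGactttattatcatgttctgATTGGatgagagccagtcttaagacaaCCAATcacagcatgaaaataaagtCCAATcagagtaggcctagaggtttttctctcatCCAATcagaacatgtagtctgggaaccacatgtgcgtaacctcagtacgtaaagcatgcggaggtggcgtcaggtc
POTEF: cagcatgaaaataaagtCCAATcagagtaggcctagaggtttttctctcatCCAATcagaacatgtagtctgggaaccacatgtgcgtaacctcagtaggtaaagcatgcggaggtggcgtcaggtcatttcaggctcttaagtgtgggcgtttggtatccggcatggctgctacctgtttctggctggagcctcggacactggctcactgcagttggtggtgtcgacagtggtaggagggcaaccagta
The POTEE and POTEF windows aligned over 177 bases, of which 175 were identical. POTEE held 6 CCAAT matches in the stretch shown and POTEF 2. Of all RefSeq windows 34.6% held at least 1 and 0.359% at least 5. RefSeq gives POTEI a pair of starts, and 1 of its windows matched that of POTEJ over 298 identical bases. The POTEJ window held 2 CCAAT matches, and the POTEI windows held 2 and 1.

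How much of each transcript can be told from its copies was measured by cutting the chosen transcript into overlapping stretches and looking for each among all GENCODE transcripts of other genes. Of 50-base stretches, 14.6% were found in no other gene for TRIM49, 15.8% for TRIM49C and 54.5% for TRIM49B. TRIM49C held 83.6% of the TRIM49 stretches. For the POTE genes the share was 28.0% in POTEF, 23.2% in POTEE, 51.2% in POTEI and 8.01% in POTEJ, and POTEI held 87.3% of the POTEJ stretches. With 100-base stretches the shares were 27.0%, 27.8% and 81.4% for TRIM49, TRIM49C and TRIM49B. They were 48.5%, 46.0%, 59.9% and 18.8% for POTEF, POTEE, POTEI and POTEJ. By comparison ZSCAN4, a single-copy gene of early embryos, was unique throughout. Values of single members are therefore uncertain in how fragments were divided between TRIM49 and TRIM49C, between POTEE and POTEF, and between POTEI and POTEJ, while sums over a family are less so.

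**Figure D1:**
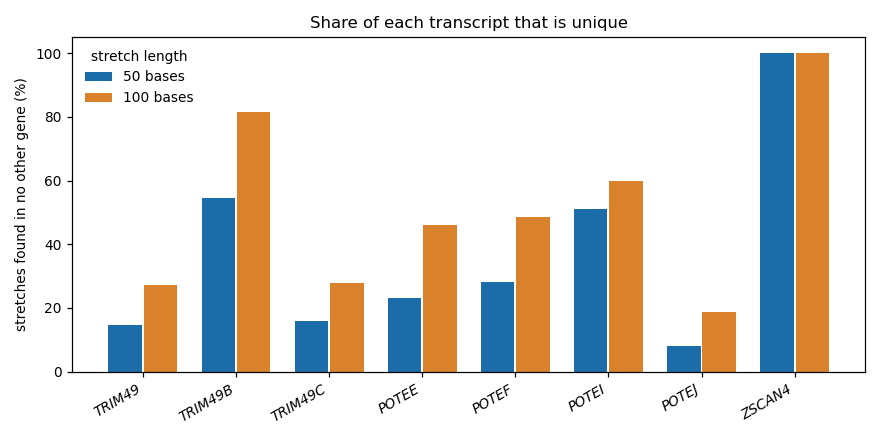
Percent of overlapping stretches of 50 bases (blue) or 100 bases (orange) of the chosen transcript of each gene that occur in no other gene of GENCODE release 29. POTEJ has the least unique sequence (8.01% and 18.8%) and TRIM49B the most among the TRIM49 genes (54.5% and 81.4%), while ZSCAN4 is unique over its whole length.

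All 3 TRIM49 genes were near 0 without drug and reached 69.4 or more scaled fragments in every library with nutlin-3a, in the shARVCF lines and in the control line alike. TRIM49 was 2.68, 2.94 and 5.10 in the untreated shARVCF lines 1, 2 and 3, and 69.4, 87.0 and 70.3 in the same lines with nutlin-3a. In the control line TRIM49 was 4.57 untreated and 122, 131 and 190 with nutlin-3a. Each treated library lay far above each untreated one, and the treated control libraries all lay above the treated shARVCF libraries. The log2 fold change of TRIM49, on the scale of log2(value + 1) used throughout, was 4.09 in the shARVCF lines and 4.71 in the control line. The shARVCF lines lay 0.94 log2 units below the control under nutlin-3a, a fitted difference of -0.94.

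TRIM49B, the member with the most unique sequence of the 3, was 0.894, 9.80 and 10.2 in the untreated shARVCF lines and 209, 191 and 206 with nutlin-3a. It was 6.40 in the untreated control and 233, 265 and 268 in the treated control. Treated and untreated libraries again did not overlap, and the treated shARVCF values lay below those of the treated control by less than they differed from untreated cells. The log2 fold change of TRIM49B was 5.05 in the shARVCF lines and 5.11 in the control line, and the difference between the lines under nutlin-3a was -0.34. In the untreated line 1 the value of TRIM49B rested on 1 fragment.

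TRIM49C, the near twin of TRIM49, was 0.894, 5.88 and 12.7 in the untreated shARVCF lines and 179, 180 and 162 with nutlin-3a. It was 2.74 in the untreated control and 186, 178 and 231 in the treated control. Here the treated shARVCF and control libraries overlapped. The log2 fold change of TRIM49C was 4.95 in the shARVCF lines and 5.72 in the control line, where the untreated library held 3 fragments. Counting those 3 fragments against 501 in the treated control gave a ratio of 71.8 (exact 95% interval 24.4 to 349, counting error only). The same ratio in the shARVCF lines was 26.2 (17.1 to 42.1).

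**Figure D2:**
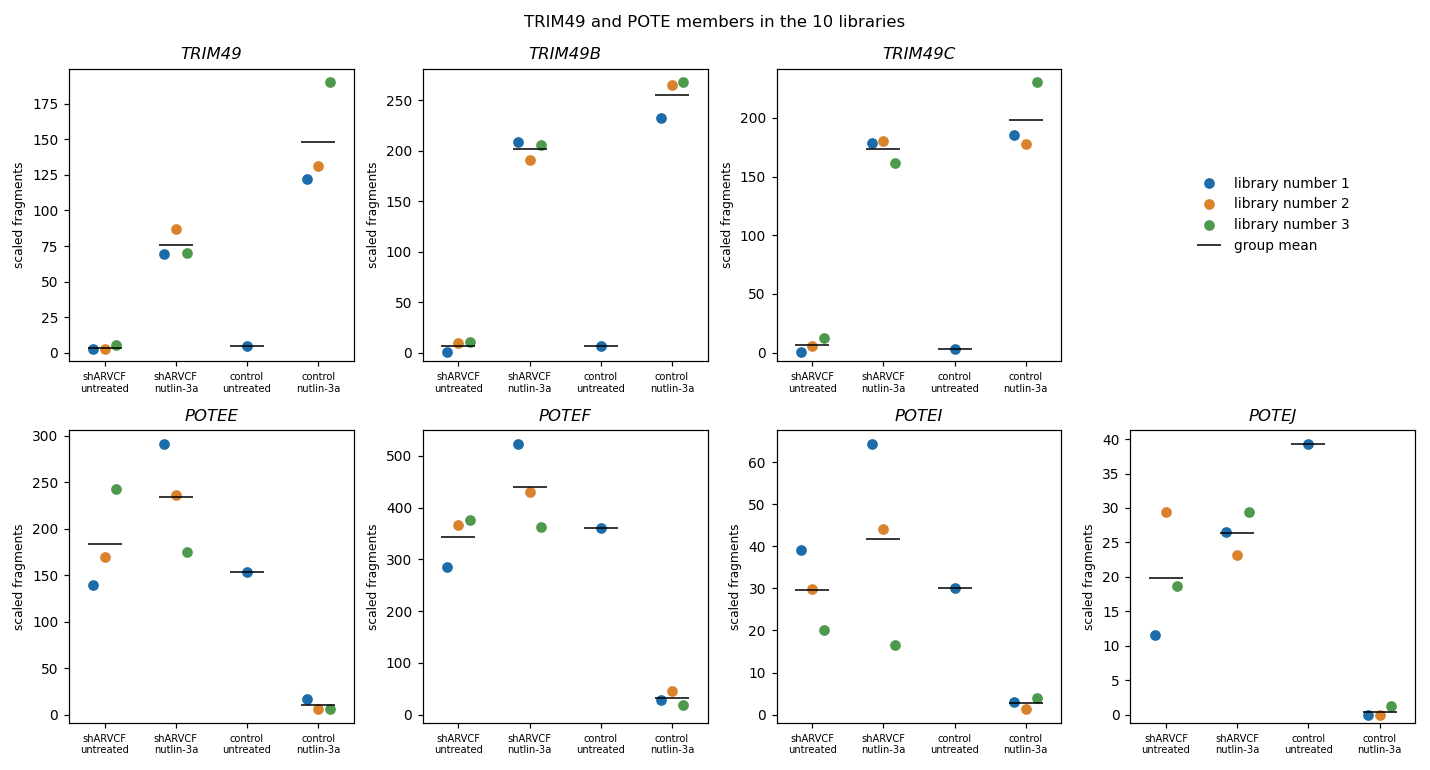
Scaled fragments (linear axis from 0) of each member in the 10 libraries. Points are libraries, coloured by library number, and black bars are group means. The 3 TRIM49 genes are high in both treated groups, for example TRIM49B at 191 to 268, while the 4 POTE genes are low only in the treated control, for example POTEF at 19.4 to 46.4.

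The TRIM49 fragments were also summed over the 3 genes, a value that depends less on how reads were divided among them. Reads shared with other genes, such as TRIM49D1, can still fall outside that sum. It was 17.0 ± 11.9 (SD, n = 3) in the untreated and 451 ± 11.4 (SD, n = 3) in the treated shARVCF lines. That is 26.5-fold. The sum was 13.7 in the untreated control and 601 ± 77.8 (SD, n = 3) in the treated control, 43.9-fold higher, and the treated shARVCF sum was 0.750 of the treated control sum. Among all 14955 genes tested, TRIM49B, TRIM49C and TRIM49 ranked 11, 12 and 38 by fold change in the shARVCF lines, and in the control line they ranked 31, 19 and 51. With the drug 21.0% of all tested genes were called higher in the shARVCF lines and 25.1% in the control line. These ranks use the contrast that chose the genes, so nothing is read from them.

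Per kilobase of spliced transcript, mean treated levels in the shARVCF lines were 93.4 for TRIM49B, 80.3 for TRIM49C and 34.9 for TRIM49, and the libraries of these 3 genes did not overlap. In the treated control the order was the same at 118, 91.5 and 68.4, and there the ranges of TRIM49C and TRIM49 overlapped. The order of TRIM49C and TRIM49 may depend on how reads shared by the twins were divided, which was not tested.

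Related RING genes were also higher in treated libraries. Of 17 listed genes of this group outside the members, 11 were in the table and 7 were tested. With nutlin-3a 6 of the 7 were called higher in the shARVCF lines (limma, adjusted p under 0.05 over all genes), and the same number were in the control line, where 21.0% and 25.1% of all genes were called higher. The median log2 fold change of the 7 was 4.49 and 4.14, beside -0.00 and -0.10 over all genes. Of the 7, 6 passed the filter only through treated libraries and so had to differ, so nothing is read from these counts and medians and those 6 are described by their values. TRIM43 also passed the filter without treated libraries.

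TRIM43, a copy on another chromosome that shares the family's PRY-SPRY end, was 2.68, 10.8 and 10.2 untreated and 127, 144 and 118 treated in the shARVCF lines. It was 10.1 untreated and 175, 188 and 157 treated in the control. No treated library of TRIM43 overlapped an untreated one, and its log2 fold change was 4.05 ± 0.38 (SE) in the shARVCF lines (limma adjusted p = 3.26e-06) and 3.97 ± 0.54 in the control line (adjusted p = 5.18e-05). TRIM51 was 0.894, 0.981 and 1.70 untreated and 66.6, 70.3 and 80.8 treated in the shARVCF lines, and 1.83 untreated and 97.3, 90.2 and 88.1 treated in the control. Log2 differences with nutlin-3a of TRIM48, TRIM43B, TRIM53AP and TRIM64B ran from 3.55 to 4.67 in the shARVCF lines and from 3.90 to 4.91 in the control line. Between the lines under nutlin-3a the log2 differences of these 6 genes ran from -0.64 (TRIM48) to -0.27 (TRIM64B).

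TRIM49D1 and TRIM49D2, the nearest copies of TRIM49 outside the members, cannot be read singly. TRIM49D2 had no stretch of 50 or 100 bases of its own. It was listed at 53.9, 59.2 and 8.01 in the treated shARVCF lines and at or near 0 in all control libraries, whereas TRIM49D1 was at or near 0 in the treated lines 1 and 2, at 20.5 in line 3, and at 17.0, 33.5 and 44.0 in the treated control. The filter let TRIM49D1 in through treated libraries, 3 of them the treated control, so its lower value in treated shARVCF than in treated control cells (log2 difference -3.45) is given with no test. The sum of both genes was 2.32 ± 2.40 untreated and 47.2 ± 16.4 treated (SD, n = 3) in the shARVCF lines, and 1.83 untreated and 31.5 ± 13.6 treated in the control line. On that sum the treated groups overlapped.

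Other genes known to be switched on by DUX4 in cleavage-stage embryos were listed together. Of 31 such genes 16 were tested, 4 of them TRIM genes already counted above. With nutlin-3a 13 of the 16 were called higher in the shARVCF lines (21.0% of all genes were) and 12 in the control line (25.1%), with medians of 3.15 and 3.74 log2 units. Of the 16, 13 passed the filter only through treated libraries and had to differ, so nothing is read from these counts. ZSCAN4, a zinc finger gene of the cleavage-stage embryo, went from 3.57, 8.82 and 18.7 to 246, 193 and 266 in the shARVCF lines and from 8.22 to 317, 393 and 307 in the control. The treated and untreated libraries of ZSCAN4 did not overlap. PRAMEF2 was 1.79, 2.94 and 2.55 untreated and 29.2, 31.5 and 34.2 treated in the shARVCF lines, and 0 untreated and 32.1, 29.6 and 32.4 treated in the control. Both genes passed the filter through treated libraries and are given with no test. Between treated lines 2 of the 16 were called lower in shARVCF cells, where 26.1% of all genes were: RFPL4A (-0.82 ± 0.15, limma adjusted p = 0.000478) and MBD3L2, which reached 10 in the treated control libraries alone and so had to differ. The summed germ cell markers were 30.1 to 48.9 in treated and 13.4 to 31.4 in untreated libraries. DAZL was at 0 throughout and DDX4 at 3.65 or less. Of the 15 germ cell markers 2 were tested, ACR and MAEL. Both were called higher with nutlin-3a in the shARVCF lines (21.0% of all genes were), and 1 of the 2 was in the control line (25.1%). Both passed the filter only through treated libraries, so nothing is read from these counts. The part of the germ cell markers in these values was not tested. DUX4 itself, named after its values were seen, was at 0 in all 4 untreated libraries and between 0 and 5.15 in the 6 treated ones, too few fragments for a fold.

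**Figure D3:**
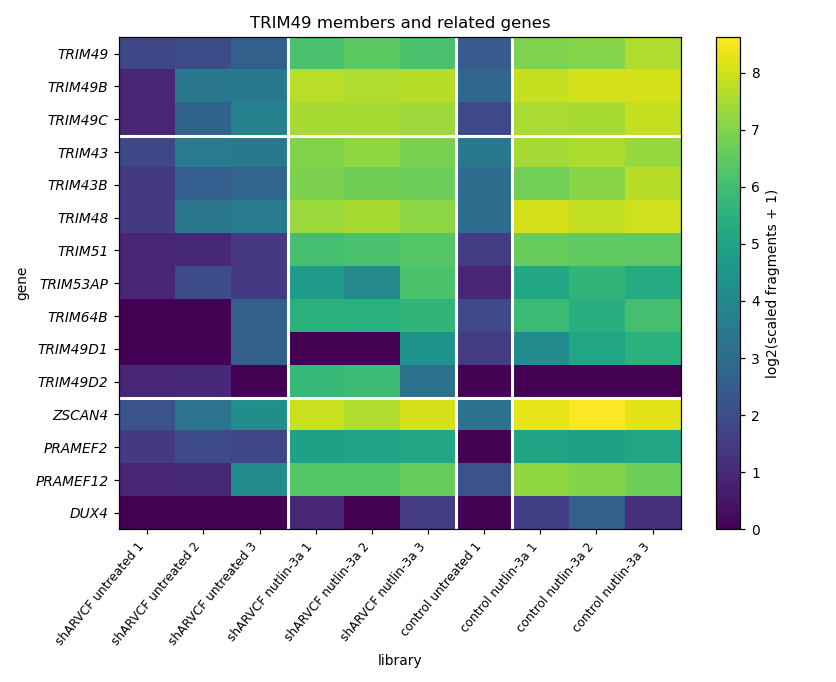
Heat map of log2(scaled fragments + 1) for the TRIM49 members (top block), related RING genes (middle) and DUX4 with 3 of its known targets (bottom) in the 10 libraries. White lines part the gene blocks and the groups. Treated libraries of both kinds are bright for nearly all rows, ZSCAN4 for example at 193 to 393 fragments, while TRIM49D1 and TRIM49D2 alternate between libraries and DUX4 stays at 5.15 or less.

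Other listed tripartite motif genes outside this group, most of them with a PRY-SPRY end, did not move as one. Of 23 tested, 7 were called higher and 2 lower with nutlin-3a in the shARVCF lines, and 6 higher and 3 lower in the control line, where 42.8% and 57.1% of all genes were called in either direction. TRIM22, an interferon-induced antiviral gene, rose by 1.54 ± 0.18 log2 units in the shARVCF lines (limma adjusted p = 4.73e-05), and in the control line it was 887 untreated and 2005, 1986 and 2014 treated. TRIM38 rose in both (0.94 ± 0.11 and 1.08 ± 0.16, limma adjusted p = 2.73e-05 and 0.000103). TRIM6 fell in the control line (-1.41 ± 0.17, limma adjusted p = 2.36e-05).

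The POTE genes showed another pattern: present without drug in every line, of similar or somewhat higher level with nutlin-3a in the shARVCF lines, and low in the treated control line. POTEE was 139, 170 and 242 in the untreated and 291, 236 and 175 in the treated shARVCF lines 1, 2 and 3. In the control line POTEE was 154 untreated and 17.0, 6.44 and 6.47 with nutlin-3a. The treated control libraries lay far below all others, and the remaining groups overlapped. The log2 fold change of POTEE was 0.35 in the shARVCF lines and -3.95 in the control line, and the shARVCF lines lay 4.52 log2 units above the control under nutlin-3a.

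POTEF, the most abundant of the 4, was 285, 367 and 376 untreated and 524, 431 and 362 treated in the shARVCF lines. It was 361 in the untreated control and 28.1, 46.4 and 19.4 in the treated control. The treated control libraries again stood alone below the rest. Log2 fold changes of POTEF were 0.35 in the shARVCF lines and -3.57 in the control line, and the lines differed by 3.84 under nutlin-3a.

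POTEI was 39.0, 29.8 and 20.1 untreated and 64.4, 44.0 and 16.6 treated in the shARVCF lines, and 30.2 untreated and 3.10, 1.29 and 3.88 treated in the control. POTEJ, which shares most of its sequence with POTEI, was 11.6, 29.4 and 18.7 untreated and 26.5, 23.1 and 29.5 treated in the shARVCF lines. In the control line POTEJ was 39.3 untreated and 0, near 0 and 1.29 treated. For both genes each treated control library lay below every other library. The log2 difference between shARVCF and control lines under nutlin-3a was 3.38 for POTEI and 4.37 for POTEJ. The POTEJ value depends on very few fragments: 43 in the untreated control against 1 in the 3 treated control libraries, a ratio of 100 (exact 95% interval 17.0 to 4042, counting error only). POTEI was the only member whose values were not whole multiples of 1 fragment in most libraries (whole in 2 of 10).

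Summed over POTEE, POTEF, POTEI and POTEJ, the fragments were 576 ± 92.7 untreated and 741 ± 162 treated (SD, n = 3) in the shARVCF lines, 1.29-fold. In the control line they were 584 untreated and 44.5 ± 12.0 treated (SD, n = 3), 13.1-fold lower. The treated shARVCF sum was 16.7-fold the treated control sum. All 4 genes had treated control libraries below all treated shARVCF libraries. In that comparison 58.4% of all tested genes were called in either direction and 32.3% were called higher in shARVCF cells, and it is the comparison that chose the POTE members. The 11 prostate epithelium markers, genes of a tissue known for POTE expression, summed to between 1501 and 1576 in the treated control and between 1909 and 2470 elsewhere, with KLK3 at 8.02 or less. Of the 8 tested, 2 were called higher in treated shARVCF than in treated control cells, at a median of -0.02 log2 units. The placenta markers, of another such tissue, had a higher sum in the treated control (568.5 to 838.3) than in the untreated control (190). In the shARVCF lines they summed to between 122 and 591 untreated and between 230 and 895 treated. The 7 epithelial markers did not move as one: their sum was between 26600 and 27650 in the treated control and between 8935 and 14130 elsewhere, through KRT8 and KRT18, while EPCAM, KRT5 and KRT14 were lower in each treated control library than in the untreated one. The part of these marker levels in the POTE values was not tested. In the bulk RNA used here, fewer cells that express a gene and less of its RNA per cell cannot be told apart.

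Without drug the POTE members of the shARVCF lines lay close to the control library. The log2 differences were 0.22 for POTEE, -0.09 for POTEF, -0.07 for POTEI and -1.04 for POTEJ, for which the control value of 39.3 was above all 3 shARVCF lines. Those of the TRIM49 genes were -0.32, -0.27 and 0.59 for TRIM49, TRIM49B and TRIM49C. With 1 control library there is no spread of its own behind these differences, and 3 of 14955 genes (0.0201%) were called in that comparison.

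The 3 shRNA lines had different POTE ratios with nutlin-3a. In line 1 POTEE was 2.09-fold and POTEF 1.84-fold higher with the drug. In line 2 the ratios were 1.39 and 1.18. In line 3 they were 0.722 and 0.962, so that line 3 lay at or below its untreated value while line 1 lay above it. POTEI followed the same order of lines, at 1.65, 1.48 and 0.825, and POTEJ did not, at 2.28, 0.786 and 1.58. Each line has 1 library per treatment, so these ratios have no replicate check. TRIM49 genes were higher with nutlin-3a in each of the 3 lines, least of all in line 3 for TRIM49 (3.55 log2 units) and TRIM49C (3.56).

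**Figure D4:**
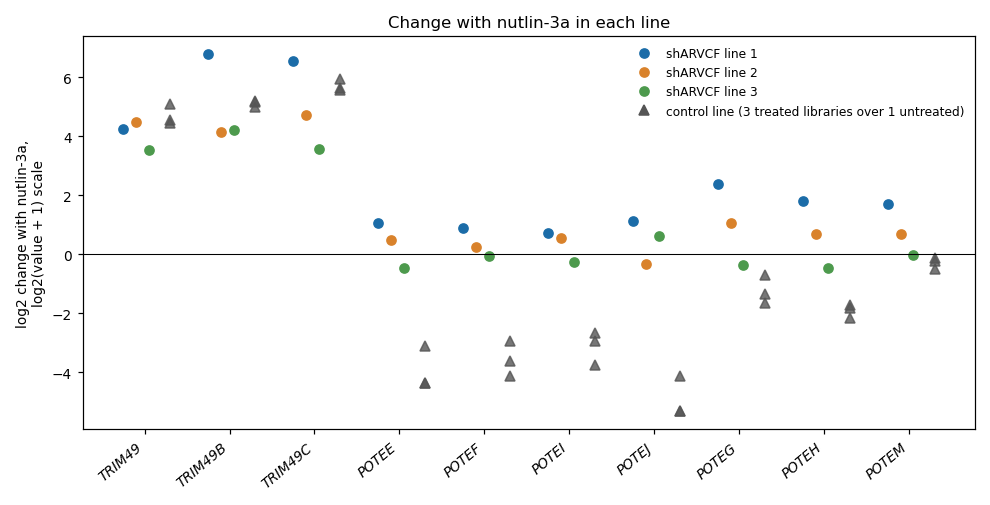
Change with nutlin-3a, as the difference of log2(value + 1), in each shARVCF line (circles) and for each of the 3 treated control libraries against the 1 untreated control library (triangles). TRIM49 genes are above 0 in every line, while the POTE members lie between -0.47 and 1.12 in the shARVCF lines and well below 0 in the control line. POTEG, POTEH and POTEM order the 3 shARVCF lines as POTEE does.

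Per kilobase of spliced transcript the untreated shARVCF means were 89.2 for POTEF, 44.2 for POTEE, 5.88 for POTEJ and 4.22 for POTEI. POTEF lay above POTEE in every one of these libraries, POTEE above the other 2, and the ranges of POTEJ and POTEI overlapped. In the treated control all 4 were low, from 8.14 for POTEF to 0.128 for POTEJ.

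Other POTE genes were followed as a list. Of 11 listed genes 10 were in the table and 4 were tested (POTEG, POTEH, POTEM and POTEKP), all of which passed the filter on untreated libraries alone. POTEA, POTEB, POTEB2 and POTEB3 were at 0 in all 10 libraries, POTEC was at 0 in 9, and POTED stayed at 5.88 or less. For close copies a value of 0 may also reflect how shared reads were placed. Under nutlin-3a all 4 tested genes were called higher in shARVCF than in control cells, where 32.3% of all genes were, with a median of 1.85 log2 units beside 0.06 over all genes. POTEH had the largest of these differences (2.75 ± 0.37, limma adjusted p = 4.37e-05), followed by POTEG (2.16 ± 0.44, adjusted p = 0.000982), POTEKP (1.54 ± 0.52, adjusted p = 0.0217) and POTEM (1.30 ± 0.31, adjusted p = 0.00283). With replicate 1 as the only treated control library, 1 of the 4 (POTEH, 3.02, adjusted p = 0.00384) was called, and POTEG (1.62, adjusted p = 0.0704), POTEM (1.14, adjusted p = 0.0794) and POTEKP (1.58, adjusted p = 0.119) were not. The POTEKP call was also lost without replicate 2 of the treated control (adjusted p = 0.0567) or the treated line 1 (0.11).

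Within the control line POTEH alone of the 4 was called lower with nutlin-3a (log2 fold change -1.90 ± 0.52, limma adjusted p = 0.00775), where 32.0% of all genes were called lower. POTEH was 57.6 untreated and 12.0, 15.4 and 16.8 treated there. In the shARVCF lines, where 42.8% of all genes were called in either direction, limma called 0 of the 4 with nutlin-3a at the adjusted threshold. At an unadjusted p under 0.05 it called 2, with log2 fold changes of the 4 between -0.41 (POTEKP) and 1.01 (POTEG). The nutlin-3a responses of POTEG and POTEH differed between shARVCF and control lines, by 2.25 ± 0.75 (limma adjusted p = 0.0381) and 2.58 ± 0.64 log2 units (adjusted p = 0.0089), where 31.8% of all genes were called and 19.3% were called higher. The POTEG call was lost with the length and GC trend removed (2.33, adjusted p = 0.0631), with no filter (0.0616), and with the first library numbers alone (1.71, adjusted p = 0.202) or as a term (0.174). Its adjusted p was between 0.0593 and 0.0742 when replicate 2 or 3 of the treated control, the untreated line 1 or 2, or the treated line 1 or 2 was left out. With a replicate block on the line, POTEM was called higher with nutlin-3a in the shARVCF lines (limma adjusted p = 0.0438, against 0.0536 without the block). In line 1 POTEG, POTEH and POTEM were 5.35-fold, 3.57-fold and 3.31-fold higher with nutlin-3a, and in line 3 they were at 0.764, 0.713 and 0.990 of their untreated values. POTEG, POTEH and POTEM also share most of their sequence, with 12.9%, 17.1% and 8.03% of 50-base stretches unique.

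Ankyrin repeat genes related to POTE showed lower values in the treated control as well. Of 7 tested, 5 were called lower with nutlin-3a in the control line and 6 were called higher in shARVCF than in control cells under nutlin-3a, where 32.0% and 32.3% of all genes were. Of the 7, 2 passed the filter only through treated libraries. ANKRD36C was 123 untreated and 20.1, 21.3 and 30.1 treated in the control, against 112, 85.4 and 52.3 in the treated shARVCF lines (control fold change -2.34 ± 0.44, limma adjusted p = 0.000682). ANKRD26, a related single gene with ankyrin repeats and coiled coils, was 370 untreated and 163, 158 and 166 treated in the control (-1.18 ± 0.16, limma adjusted p = 4.48e-05). With the dependence on transcript length and GC content taken out library by library, the control fold change of ANKRD26 was 0.02 (adjusted p = 0.922), 3 of the 7 genes were called lower in the control line, and 4 were called higher in the shARVCF lines under nutlin-3a, beside 3106 and 2336 of all 14742 genes.

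The same removal left the POTE members low in the treated control. The control fold changes became -3.50 for POTEE, -3.22 for POTEF, -2.40 for POTEI and -4.63 for POTEJ, and the differences between lines under nutlin-3a became 4.13, 3.53, 2.66 and 4.11. Using the first library numbers only, which leaves 1 treated control library, the differences between lines were 3.67, 3.90, 3.18 and 4.77. The number of genes called for the difference of responses over the whole table was 4756 and went to 1997 with the trend removed.

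Other primate duplicated families, such as NBPF and GOLGA genes, were followed as a list. Of 36 tested, 6 were called higher and 12 lower in the control line, and 8 higher and 4 lower in the shARVCF lines, at medians of -0.18 and 0.01 log2 units. Over all genes 25.1% were called higher and 32.0% lower in the control line, and 21.0% and 21.7% in the shARVCF lines, so the list's count of genes called lower in the control line was near that of all genes. With the length and GC trend removed the control line had 7 called higher and 7 lower. NBPF10 was 77.7 untreated and 11.0, 2.58 and 9.06 treated in the control, against 54.8, 94.4 and 77.0 in the treated shARVCF lines (difference between lines 3.30 ± 0.41, limma adjusted p = 2.19e-05).

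Because the POTE members end in an actin copy, actins were set beside them. ACTB was between 67100 and 111000 in all libraries, far above the POTE members. ACTB fell with nutlin-3a in the shARVCF lines (-0.54 ± 0.11, limma adjusted p = 0.00129) and in the control line (-0.41 ± 0.15, adjusted p = 0.0327, and 0.0673 without replicate 2 or 0.0863 without replicate 3 of the treated control). That ACTB call was also lost with TMM, relative log expression and upper-quartile factors (limma adjusted p = 0.0532, 0.0627 and 0.16). With the first library numbers alone or as a term, the ACTB change in the control line was smaller, at -0.24. Between treated lines the ACTB difference was -0.24 ± 0.11 (adjusted p = 0.0748). ACTG1 fell in the shARVCF lines (-0.49 ± 0.13, limma adjusted p = 0.0105), and in the control line its adjusted p was 0.113 and 0.0424 with a replicate block. ACTA2 went from 110 to 1242, 1343 and 1345 in the control line and from 70.0, 114 and 161 to 1082, 916 and 990 in the shARVCF lines. ACTBL2, a beta-actin-like gene, was called higher in treated shARVCF than in treated control cells (1.04 ± 0.20, limma adjusted p = 0.000827).

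Of the genes beside the members, few were seen to follow them, and several were at 0 throughout. How multi-mapping reads were handled is not given. A gene at 0 can therefore not be told from one whose reads were placed elsewhere or dropped. TRIM26, TRIM27 and TRIM39 were also at 0 in every library. Next to TRIM49, TRIM64B was higher with the drug in both kinds of line, and TRIM77 was at 0 throughout. Next to TRIM49C, TRIM53AP was higher in both and UBTFL1 was at 0, and next to TRIM49B both TRIM64C and OR4A47 were at 0. Beside the POTE members, CFC1 and CFC1B were at 0, and MED15P9, next to POTEF, was 47.0 in the untreated and 46.5 ± 42.0 (SD, n = 3) in the treated control. FAM168B, next to POTEE, was 5975 in the untreated and 3553 ± 186 (SD, n = 3) in the treated control (limma adjusted p = 0.000122), against 5835 ± 210 and 5199 ± 29.7 in the shARVCF lines (adjusted p = 0.118).

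The genes most like each member over the 10 libraries, by Pearson r of log2(value + 1) among 12370 genes with a mean of at least 50, are given as a description, since libraries of 1 group share treatment and line. TRIM49B was most like TRIM48 (r = 0.996), TRIM43 (0.996) and NALT1 (0.995). TRIM49 was most like CYGB (0.997), EML2 (0.996) and COL17A1 (0.996), all with a higher mean in treated control than in treated shARVCF libraries. TRIM49C was most like IP6K3 (0.993), ZC3H12A (0.992) and BATF2 (0.991). POTEF was most like KMT2C (0.998), RAD54L2 (0.995) and AAK1 (0.995), POTEE like SDE2 (0.993), KDM6A (0.993) and DMXL2 (0.993), POTEI like NBPF12 (0.987), MPDZ (0.985) and ZNF264 (0.982), and POTEJ like G3BP2 (0.989), MFAP3L (0.986) and UBXN7 (0.986). Each of these POTE-like genes had its lowest group mean in the treated control, KMT2C for example at 870 untreated and 196 treated there against 839 and 934 in the shARVCF lines.

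Within a family the members resembled each other, with r from 0.967 to 0.991 among the TRIM49 genes and from 0.908 to 0.969 among the POTE genes. Between the families r ran from -0.593 to -0.436. Members of a family share reads, and all members share the same 10 libraries.

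**Figure D5:**
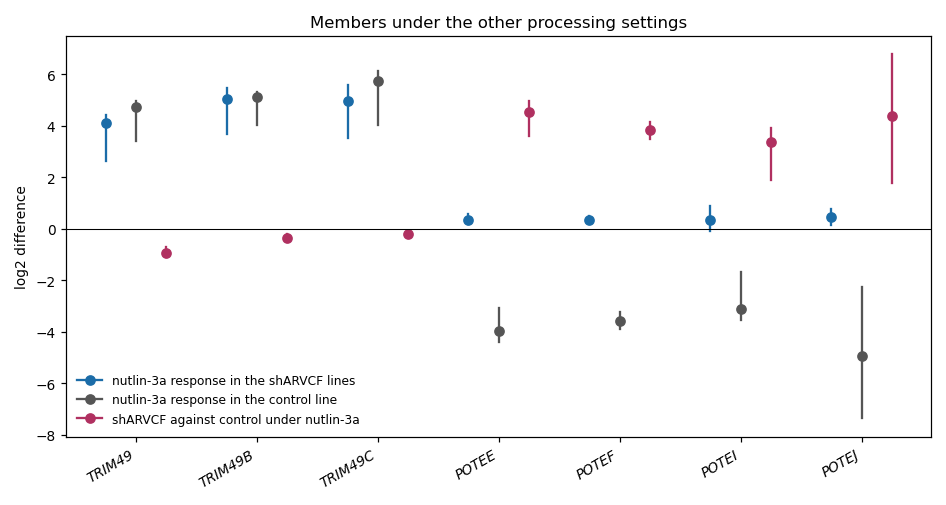
Log2 difference of each member in 3 comparisons. Dots are the values of the fit used in the text, and bars span the other processing settings. For the POTE genes the control response stays below 0 and the difference between lines under nutlin-3a above 0 in every setting, with the widest bar for POTEJ (up to 6.77).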

How the data were processed

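RNA was sequenced in 10 libraries in 4 groups. Per the submitters' processing notes the authors used bcl2fastq 1.8.3, HISAT2 2.1.0 with hg38 and Cuffnorm 2.2.1. The deposited values are a signal, estimated fragments per gene scaled per library by the authors. How multi-mapping reads and strand were handled and the annotation behind the symbols are not given in the sources used here. Between 51.6% and 58.2% of values above 0 were whole multiples of 1 fragment (tolerance 0.01), so no count test was used and limma 3.58.1 (R 4.3.3, trend and robust moderation, two-sided) was run on log2(value + 1) for genes at 10 or more in at least 3 libraries, 14955 genes. A pseudocount of 1 understates changes of low genes. The model had 4 group means and 6 residual degrees of freedom, so the lone untreated control library is assumed to vary like the others. Calls are at a Benjamini-Hochberg adjusted p under 0.05 over all genes. Labels do not say that the treated control libraries were separate cultures, so p-values measure only the spread between these libraries.

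The members and the 15 gene lists were chosen with earlier results of these data known, so members have no test. Named genes are the members, ARVCF, MDM2 and CDKN1A, all listed POTE genes, TRIM49-like genes and actins, up to 4 genes per other list by adjusted p, the 3 most similar genes per member and the nearest neighbours. Of the symbols, 24016 matched GENCODE 29 by name, 694 by an older name and 1330 did not match, and exact stretches of 50 and 100 bases were compared over its transcripts. Promoter windows came from RefSeq (GRCh38.p14). Depth was estimated from the value of 1 fragment (0.850 to 1.29), and intervals are exact and cover counting error only. Same-line libraries deviated together (r of 0.275, 0.288 and 0.327 between the untreated and treated libraries of lines 1, 2 and 3), and the shRNA in the labels gives the pairing. On simulated data for the nutlin-3a response in the shARVCF lines (14772 genes), 94 of 104 genes changed by 1 log2 unit and 94 of 94 changed by 2 were called, with 18 false calls. The simulation changed few genes, used the same dispersion for all genes and held no line effect. It checks the code and does not give the power in the data. Alternatives were the pseudocount, the filter, the scaling, removal of a length and GC trend (14742 genes with both), the first library numbers alone or as a term, a replicate block and each library left out.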

Additional observations from a re-analysis of the deposited data

Results flagged for a closer look

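The nutlin-3a responses of POTEG differed between shARVCF and control lines by 2.25 log2 units in the interaction of the limma model (adjusted p = 0.0381), with 1.01 in the shARVCF lines and -1.24 in the control line. That call was lost with the length and GC trend removed (adjusted p = 0.0631), with no filter (0.0616), with the first library numbers alone (0.202) and with them as a term (0.174). The responses of POTEH differed by 2.58 (limma adjusted p = 0.0089), with 0.68 and -1.90. Those of ACTBL2 differed by 1.36 (limma adjusted p = 0.0115), with 0.96 and -0.39, and after removal of the length and GC trend by 1.09 (adjusted p = 0.06). The first treated control library and the only untreated control library enter all 3 values.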

How the results depend on the processing

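With the length and GC trend removed, 5733 genes (2336 higher, 3397 lower) were called between shARVCF and control under nutlin-3a, against 8731 (4829 and 3902), and 1997 (778 and 1219) for the difference of the responses, against 4756 (2893 and 1863). Under that setting signs turned for ACTR1B (0.16) and MDM2 (-0.16) between treated lines, ANKRD26 (0.022) in the control response, and MDM2 (-0.13) and STEAP2 (-0.059) in the difference, and the control response had 4234 genes higher and 3106 lower, against 3752 and 4780. Upper-quartile scaling gave 4651 higher and 4085 lower there, 4253 and 4683 between treated lines, and 2493 and 2541 for the difference, while scaling by library total moved the control median from -0.10 to -0.22. Without drug, 3 genes were called, and limma called 0 with the trend removed, 0 with a pseudocount of 10 and 0 with the first library numbers alone (225, 226 and 243 at an unadjusted p under 0.05, no other tool was run). A pseudocount of 0.1 gave 8 and the replicate block on the line gave 8. Leaving out each library gave 1 to 4 there (1 without the untreated line 1), 4153 to 4830 for the difference, 8163 to 8568 for the control response, 5323 to 6603 for the shARVCF response and 7833 to 8725 between treated lines. Leaving out the only untreated control library gives no value for the comparisons that need it. The cause of these changes was not tested.

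Of 749 member values under other settings, 721 moved by less than the spread between replicates and 28 by more, of which 15 with a pseudocount of 10. Some settings cannot move a member's fold change, such as another filter, the replicate block, or leaving out a library from outside the comparison. The 721 include such values, so that count is no measure of stability. The replicate block changed the nutlin-3a calls of POTEM in the shARVCF lines (limma adjusted p = 0.0438) and of ACTG1 in the control line (0.0424). It also changed that of TRIM49D1 in the control line, a gene that passed the filter through treated libraries and is given with no test. Under the replicate block no other call of a POTE, TRIM49-like or actin gene changed. Other settings changed more of these calls, among them those of POTEG, POTEKP, POTEM and ACTB given above. Low members limit the precision: POTEJ in the treated control rests on 1 fragment, and TRIM49C in the untreated control on 3.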
